A study of Homo sapiens with 16 samples.

Results

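CpG-rich promoters were examined in the regions where H3K27ac changed after inhibition of O-GlcNAc transferase (OGT) in LX-2 cells, an immortal line derived from human hepatic stellate cells that has myofibroblastic features. A listed region was taken as a CpG-rich promoter when any of its bases lay within 2500 bp of the 5′ end of a protein-coding gene (the transcription start site, TSS) and the observed/expected CpG ratio of its sequence was at least 0.6. This ratio compares the number of CG dinucleotides with the number that the C and G content of the same sequence would give. Of 7130 listed regions, 1036 met both conditions. Among them, 183 had lost and 853 had gained H3K27ac.

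The 16 libraries of the study came from LX-2 cells given 50 µM OSMI-1 (OGTi, an inhibitor of OGT) for 24 h or no OSMI-1 (control). H3K27ac ChIP-seq was made from 4 cultures with OGTi and 4 control cultures, and the other 8 libraries were inputs and libraries of accessible chromatin (CoP-seq) and entered no comparison here. The authors tested the 8 H3K27ac libraries together and deposited a list of regions that lost H3K27ac and a list of regions that gained it, with an adjusted p threshold of 0.15 in the list names. Each entry is a position on hg38 with no signal, fold change or replicate value, so the size of a change and its spread between cultures cannot be given, the read depth behind a region is unknown, and all errors below are errors of counting regions or genes. LX-2 is 1 cell line, OGT was inhibited by 1 compound at 1 dose in these libraries, and the lists cannot tell a change per cell from a change in the mix of cell states.

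Most human promoters are rich in CpG, because CpG islands, which escape the DNA methylation that depletes CpG elsewhere, lie over the TSSs of nearly all housekeeping genes and of many regulated ones. Such promoters often lack a TATA box, start transcription at several nearby positions and are frequently divergent, with another transcript leaving in the opposite direction. H3K27ac, placed by the acetyltransferases EP300 and CREBBP, marks the nucleosomes that flank the start of an active gene. OGT adds O-GlcNAc to serines and threonines of nuclear and cytoplasmic proteins, among them many chromatin and transcription factors.

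The letters of these promoters carry part of the differences described below, and a few are therefore shown. The first 4 sequences are the 100 bases before the TSS of genes among those with the most bases in lost regions (BOLA1 and H2AC20, which tie with H2AC21 and H2BC21) and in gained regions (DUSP6, and SPRY2, which follows MYC), with each CG in capitals. The stretch of BOLA1 is at chr1:149887790-149887889 and that of H2AC20 at chr1:149886818-149886917, both on the plus strand. Those of DUSP6, at chr12:89352502-89352601, and SPRY2, at chr13:80341127-80341226, are on the minus strand. All are from hg38 and read 5′ to 3′ on the strand of the gene. They hold 13, 2, 8 and 8 CG dinucleotides in this order. The stretch before BOLA1 also lies in the neighbouring histone gene H2AC21.
BOLA1 upstream (lost): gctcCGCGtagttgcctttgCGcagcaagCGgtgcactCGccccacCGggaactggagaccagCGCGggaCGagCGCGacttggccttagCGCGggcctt
H2AC20 upstream (lost): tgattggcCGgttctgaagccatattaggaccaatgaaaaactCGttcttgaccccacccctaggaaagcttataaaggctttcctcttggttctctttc
DUSP6 upstream (gained): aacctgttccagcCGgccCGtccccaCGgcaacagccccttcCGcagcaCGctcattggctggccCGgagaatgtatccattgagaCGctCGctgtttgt
SPRY2 upstream (gained): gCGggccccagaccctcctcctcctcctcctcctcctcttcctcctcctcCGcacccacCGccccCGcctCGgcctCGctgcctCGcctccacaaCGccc

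The other sequences show matches of short transcription factor motifs whose frequency differed between lost and gained promoters, with the match in capitals and 10 bases on either side. For each motif they come from the genes with the most matches in the direction where the motif was more frequent, and positions are on hg38 with the strand of the gene.
ZNF787 (gained, ETS, chr19:56121278-56121305, minus strand): cgggaaggtcACTTCCGGcctgggcgcc
ZNF274 (gained, ETS, chr19:58183059-58183086, plus strand): ccattccagcACTTCCGGcctgacccct
HCFC1 (gained, YY1, chrX:153971796-153971824, minus strand): ttcttcacacAAGATGGCGgctcccaggg
TTC17 (gained, YY1, chr11:43358881-43358909, plus strand): cgacctcttcAAGATGGCGggcgccggag
FCHO2 (gained, NRF1, chr5:72955948-72955976, plus strand): cgctaggtggCGCATGCGCcctggaaggt
MAP2K7 (gained, NRF1, chr19:7903665-7903693, plus strand): cgggaattggCGCATGCGCactacggtgg
LAMP1 (gained, E-box, chr13:113297228-113297253, plus strand): cggcgcagctCACGTGacaagcgctg
WWP2 (gained, antioxidant response element, chr16:69762307-69762335, plus strand): cgcggtcacgTGACCCGGCccgagtgcgg
GREM1 (gained, antioxidant response element, chr15:32718037-32718065, plus strand): gtgcacggccGCCGCGTCActctcggtcc
SEMA5A (lost, SP/KLF, chr5:9546146-9546174, minus strand): ggggcggggcGGGGCGGGGgtgggcccag
H2AC21 (lost, NFY, chr1:149887965-149887989, minus strand): attacatcaaATTGGttattctttc
H3C12 (lost, NFY, chr6:27893064-27893088, minus strand): gagctgggctCCAATttcctgtagg
H2AC11 (lost, TATA, chr6:27133002-27133027, plus strand): caatagtgttTATAAAaagcgccgcc
H2BC11 (lost, TATA, chr6:27132754-27132779, minus strand): tcgttggcgcTTTATAgctacacagt

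The CpG-rich promoters among the listed, changed regions mostly gained H3K27ac under OGTi. Lost regions made up 17.7% of them (183 of 1036, Wilson 95% interval 15.5% to 20.1%), whereas 49.2% of all listed regions and 26.2% of all 1520 listed regions at protein-coding promoters were lost. At CpG-poor promoters of protein-coding genes, 44.4% were lost (215 of 484, 40.1% to 48.9%), and at promoters of non-coding genes only, 50.4% (352 of 699, 46.7% to 54.0%). The odds of loss were lower at CpG-rich than at CpG-poor promoters (odds ratio 0.268, 95% interval 0.211 to 0.341, two-sided Fisher's exact test, p = 3.98e-27). Against all 6094 other listed regions, of which 54.5% were lost, the odds ratio was 0.179 (0.151 to 0.211, exact p = 1.34e-114). Neighbouring regions can belong to 1 acetylated domain, in which case these p-values are too small. The odds ratio was 0.234 when regions of 1 direction within 1000 bp of each other were counted once.

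The share of losses was lower in each successive class of CpG ratio up to a ratio of 1. It was 58.6% in the 111 promoter regions with a ratio below 0.2, 46.4% in the 207 between 0.2 and 0.4, and 32.5% in the 166 between 0.4 and 0.6. Above the threshold it was 19.5% in 615 regions between 0.6 and 0.8 and 14.8% in 398 regions between 0.8 and 1. The 23 regions with a ratio of 1 or more held 4 losses (17.4%), a share whose interval overlapped those of both classes below it.

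**Figure D1:**
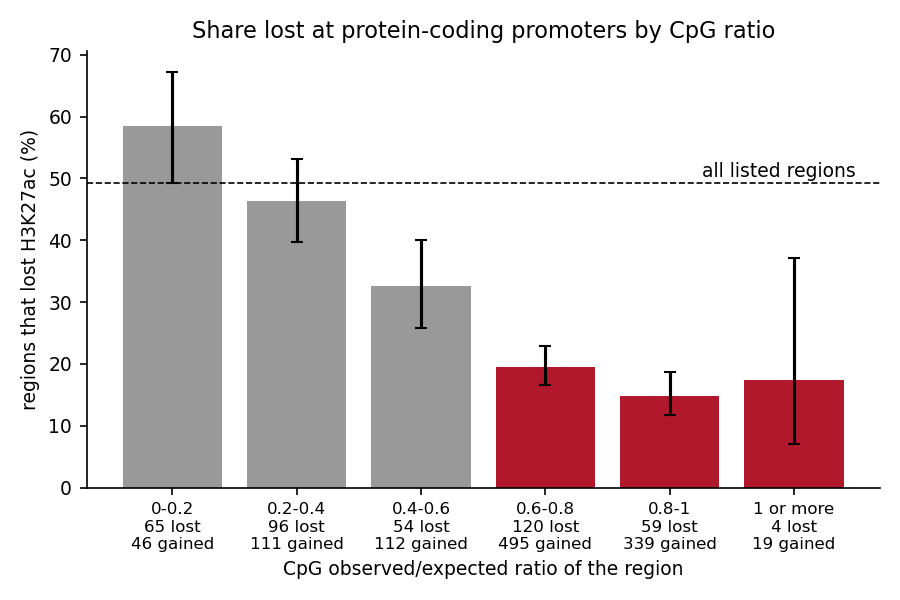
Share of regions at protein-coding promoters that lost H3K27ac (y axis, percent) in classes of the CpG observed/expected ratio of the region (x axis, with the numbers lost and gained). Bars are shares with Wilson 95% intervals, red bars are the CpG-rich classes, and the dashed line is the share over all listed regions (49.2%). The share is 58.6% in the lowest class and 14.8% in the class from 0.8 to 1.

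The threshold divided a continuous range of ratios. The lost region nearest above the threshold belonged to SEMA5A, a semaphorin, with a ratio of 0.6, and the nearest below it to SNAI1, the gene of the transcription factor Snail, with 0.593. Among gained regions these were HDGF, at 0.6006, and MOK, at 0.5997. Within 0.05 above the threshold were 30 lost and 79 gained regions, and within 0.05 below it 12 and 47.

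Gains outnumbered losses on each of the 23 nuclear chromosomes, and on each of them the members were lost less often than the other listed regions. Chromosome 22 held 24 gained and 0 lost members, although 72.0% of its other listed regions were lost. Chromosome 6 had the highest share of lost members among nuclear chromosomes with more than 10 members (20 of 61, 32.8%), and 13 of these 20 lay at histone genes. The mitochondrial genome was the exception. All 7 members on it were lost, as were the 3 other listed regions there, and none was gained.

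**Figure D2:**
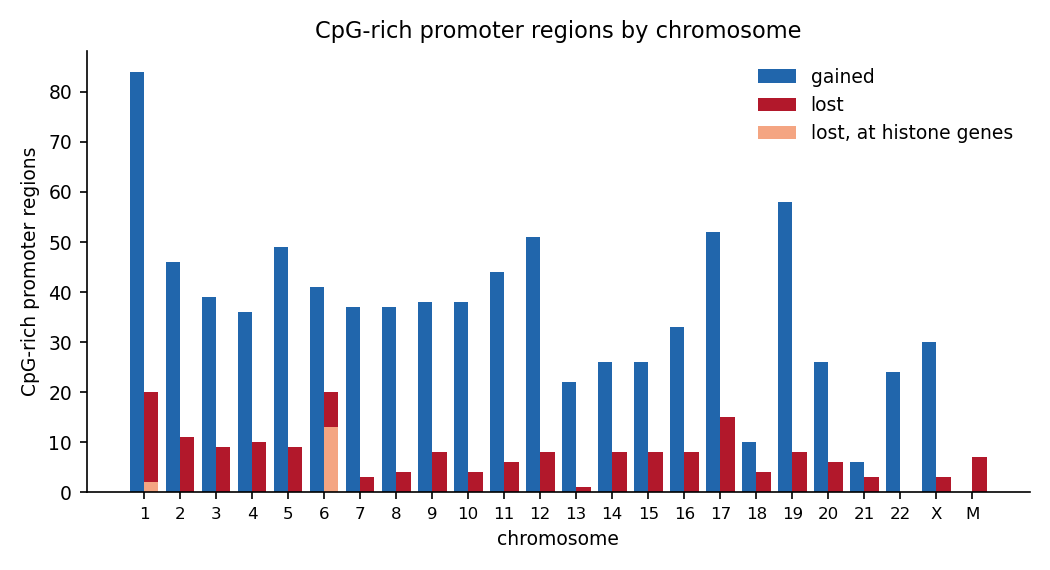
Number of CpG-rich promoter regions (y axis) that gained (blue) or lost (red) H3K27ac on each chromosome (x axis, M is the mitochondrial genome), with lost regions at histone genes in orange. Blue bars exceed red bars on all 23 nuclear chromosomes, and the orange part makes up 13 of the 20 losses on chromosome 6.

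Histone genes were the most conspicuous losses. A lost member lay at 27 of the 79 annotated histone genes (34.2%) and a gained member at none, against 1.07% and 5.28% of all 20046 protein-coding genes. Among the 11741 protein-coding genes whose own promoter window was CpG-rich, 1.46% had a lost and 7.93% a gained member. Histone genes lie in clusters, are mostly intronless and are transcribed in S phase, when new chromatin is assembled. The losses covered all families, with 8 of 21 H2A, 7 of 18 H2B, 6 of 15 H3, 3 of 15 H4 and 3 of 10 linker histone H1 genes. All 27 were in the clusters of chromosomes 6 and 1. They were 24 of the 55 histone genes on the whole of chromosome 6 and 3 of the 14 on chromosome 1. The 10 histone genes on other chromosomes had no member.

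Since histone genes stand close together, the 27 genes were served by 15 regions, 13 of them between positions 26020462 and 27895838 of chromosome 6 and 2 on chromosome 1. The widest set, 3864 bp in 2 regions, spanned H2BC21, H2AC20 and H2AC21 and the start of BOLA1, a gene linked to mitochondrial iron-sulphur proteins. A set of 3323 bp in 2 regions on chromosome 6 covered H2AC17, H2BC17 and H3C12. The region at H1-2, a linker histone, was 3006 bp wide. Histone genes of the same family have similar coding sequences, and the authors removed reads of low mapping quality. The attribution to single histone genes is therefore uncertain. No listed region at a histone gene was CpG-poor.

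The mitochondrial losses were given to all 13 protein-coding genes of that genome. They include MT-ND4 and MT-ND5, subunits of respiratory complex I, with 3208 bp in 2 shared regions. The 7 members covered 6057 of the 16569 bases of this genome. Mitochondrial DNA carries no histones, so these regions cannot be read as acetylated nucleosomes. What gave rise to them was not tested. Each comparison below is therefore given, where it matters, also without the mitochondrial regions and those at histone genes. The comparison of CpG-rich with CpG-poor promoters then gave 161 losses among 1014 CpG-rich and 212 among 481 CpG-poor regions, with an odds ratio of 0.239 (Fisher's exact test, p = 1.98e-30).

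Away from these loci, the genes with the most bases in lost members began with TUBB6, a beta-tubulin, whose region of 3205 bp at chr18:12306786-12309990 ran from 883 bp before to 2321 bp after the TSS. The genes with the most bases in gained members included several feedback regulators and immediate-early genes. DUSP6, a phosphatase of ERK, had 4633 bp in 2 regions that abut 481 bp before its TSS. SPRY2, an inhibitor of receptor tyrosine kinase signalling, had 4358 bp in 2 regions. MYC, a growth-promoting transcription factor, had 4370 bp in 2 regions, the first beginning 15 bp after its TSS. The other leading genes were IRF2BP2, a transcriptional corepressor, with 4000 bp, HCFC1, a chromatin-bound co-regulator that OGT itself cleaves, with 3936 bp shared with its neighbour TMEM187, and STC2, a secreted glycoprotein induced by ATF4, with 3889 bp. CCDC85B and FIBP shared 3686 bp, and JKAMP, a membrane protein of the endoplasmic reticulum, had 3678 bp.

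Gained members lay at 1058 protein-coding genes and lost members at 215. No gene had both. The groups of genes below are described by counts, and since they were chosen with earlier results of these data known, no group was tested.

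Genes of protein synthesis were among the gained members. Cytosolic aminoacyl-tRNA synthetases, which charge tRNAs with amino acids, had a gained member at 7 of 21 genes (33.3%) and a lost member at 0, beside 5.28% and 1.07% of all protein-coding genes. YARS1 (2489 bp), SARS1 (2351 bp), TARS1 (2186 bp), IARS1 (1703 bp) and AARS1 (1683 bp) had the most bases. The genes of ATF4, the transcription factor of the amino acid response, and of its targets had a gained member at 9 of 36 (25%) and none lost. STC2 led this group, followed by CEBPB (2900 bp) and CEBPG (2239 bp), which encode bZIP factors, SESN2 (2160 bp), an inhibitor of mTORC1, and XPOT (1906 bp), the exporter of tRNA. The region of CEBPB, chr20:50190434-50193333, ran from 396 bp before to 2503 bp after the TSS. Genes of the unfolded protein response and of folding in the endoplasmic reticulum were gained at 7 of 44, led by the chaperone gene HSPA5 (2387 bp), the transcription factor gene XBP1 (2279 bp), the sensor gene ERN1 (2273 bp) and the co-chaperone gene DNAJB9 (1604 bp), and lost at SERP1 (1354 bp), which encodes a protein of the translocation site.

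In several groups of housekeeping genes, the share with a gained member was above the 5.28% of all protein-coding genes. Lost members were few, as they were over all protein-coding genes (1.07%). Proteasome genes were gained at 10 of 48 (20.8%), led by PSMB1, PSMG2 and PSMC5, mitochondrial ribosomal protein genes at 15 of 78 (19.2%), led by MRPS16 (1594 bp), and cytosolic ribosomal protein genes at 9 of 86 (10.5%), none of the 3 groups with a loss. Splicing factor genes were gained at 14 of 74 (18.9%), among them HNRNPU, HNRNPC and HNRNPA3, and lost at SRSF7. Autophagy and lysosome genes were gained at 13 of 67 (19.4%), including NPC1, the lysosomal cholesterol exporter, and the ATG8-family genes GABARAPL1 and GABARAP, with no loss. The list of cyclin and cyclin-dependent kinase genes was gained at 8 of 50, of which CCND1, which drives entry into the cell cycle, had 2722 bp in 2 regions. CDK11A, which this list does not hold, was gained too. Chaperone and co-chaperone genes of all compartments, which include HSPA5 and DNAJB9 counted above, were gained at 12 of 85 and lost at DNAJC1, and RAB GTPase genes, which direct vesicle traffic, were gained at 7 of 63. Other groups had shares near or below that of all genes. Of the 48 genes of respiratory complex I and its assembly 3 were gained, of 554 numbered zinc finger genes 35 with 2 lost, of 371 solute carrier genes 12 with 2 lost, and of 39 HOX genes, which specify body position, 0 in either direction. Among their genes with a CpG-rich promoter window, the gained share was 7.69%, 7.38%, 5.13% and 0%, beside the 7.93% of all such genes. In the same count it was 40% for aminoacyl-tRNA synthetases, 36% for the ATF4 group, 26.3% for proteasome genes, 22.6% for splicing factors, 21.1% for cyclins and their kinases, 20.8% for mitochondrial and 11.4% for cytosolic ribosomal protein genes. These groups were not tested against each other or against all genes.

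Lost members lay at genes of the contractile cytoskeleton. Of 46 genes linked to SRF, the transcription factor that controls actin genes, 6 had a lost (13.0%) and 1 a gained member (2.17%). Over all protein-coding genes the balance was the reverse, with 1.07% lost and 5.28% gained. TPM1, which encodes the actin-binding protein tropomyosin, had a lost region of 2869 bp at chr15:63041603-63044471. The gene of zyxin, ZYX, a protein of focal adhesions and stress fibres, had 2594 bp at chr7:143379734-143382327. PDLIM1 (2239 bp) and ENAH (2000 bp) encode proteins that bind alpha-actinin and extend actin filaments. SRF itself had a lost region of 1538 bp at chr6:43170219-43171756, from 1050 bp before to 487 bp after its TSS. The only gained gene of this group was TES, which encodes the focal adhesion protein testin, with a region that began 77 bp after its TSS. All 6 lost regions lay over the TSS. With a CpG ratio of at least 0.75, 2 of the 6 genes remained in the count.

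The genes of the TEAD factors, the DNA-binding partners of YAP1, were members too. TEAD1 had a lost region of 1474 bp at chr11:12673521-12674994 and TEAD4 one of 2474 bp at chr12:2958223-2960696, both over the TSS, with CpG ratios of 0.993 and 0.802. Of 45 genes of the YAP and TEAD pathway, the other losses were ARHGEF17 and SH2D4A, and the gains ASAP1 and GADD45A. Of this group 8.89% were lost and 4.44% gained, beside 1.07% and 5.28% of all protein-coding genes. TGF-beta and PDGF signalling genes had a lost member at SMAD6, an inhibitory Smad (2719 bp), TGIF2, a corepressor of Smads (2006 bp), and ACVR1, a type I receptor (1818 bp). A gained member lay at TGFBR2, the type II receptor (1111 bp). Of these 42 genes, 7.14% were thus lost and 2.38% gained. Immediate-early genes had members in both directions, with 4 lost (EGR1, IER5, EGR3 and ZFP36L2) and 5 gained (DUSP6, MYC, KLF6, KLF4 and FOSL1) of 35. These were 11.4% lost and 14.3% gained, both above the shares of all protein-coding genes. At EGR1, a zinc finger factor of the serum response, the lost region ran from 2065 bp before to 32 bp after the TSS.

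The fibrosis lists that the study followed had members in both directions, to be read beside the 1.07% lost and 5.28% gained of all protein-coding genes. Of 71 genes of the liver fibrosis matrisome, 4 were lost (5.63%), namely HSPG2 (perlecan, 2913 bp), FBN1 (fibrillin 1, 2792 bp), COL12A1 (a collagen chain, 1572 bp) and ADAMTSL4 (1473 bp), and LAMC1 (a laminin chain, 2002 bp) was gained. Of 162 fibrogenic genes of myofibroblastic stellate cells, 5 were lost, among them TUBB6, TPM1, COL12A1 and TUBB2A, and 7 gained, led by GPR176 and NFIL3. Of 127 myofibroblast identity genes in the annotation, 3 were lost (KLF9, FBN1 and LOXL1) and 11 gained, led by ITGA3, DCBLD2 and NRP1. The liver fibrosis list had 2 lost and 3 gained of 61, and the list for heart, kidney and lung 1 and 2 of 147. COL12A1 was the single collagen gene among the members, of 44. Integrin genes had 1 lost (ITGB4) and 1 gained (ITGA3) of 30, and developmental transcription factor genes 4 lost and 5 gained of 166. In the hexosamine pathway, which feeds OGT, UAP1 and GNPDA1 were gained of 20 genes, and the gene of OGT had no member. NRF2 antioxidant genes were gained at 3 of 33, among them FTH1 and TXN. Histone acetylation genes were lost at BRD3 (3158 bp), a reader of acetylated histones, and gained at KAT6A and SIRT6, of 35. The fibrosis lists were in part chosen by the study for their role in these cells and are not independent evidence of a direction.

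**Figure D3:**
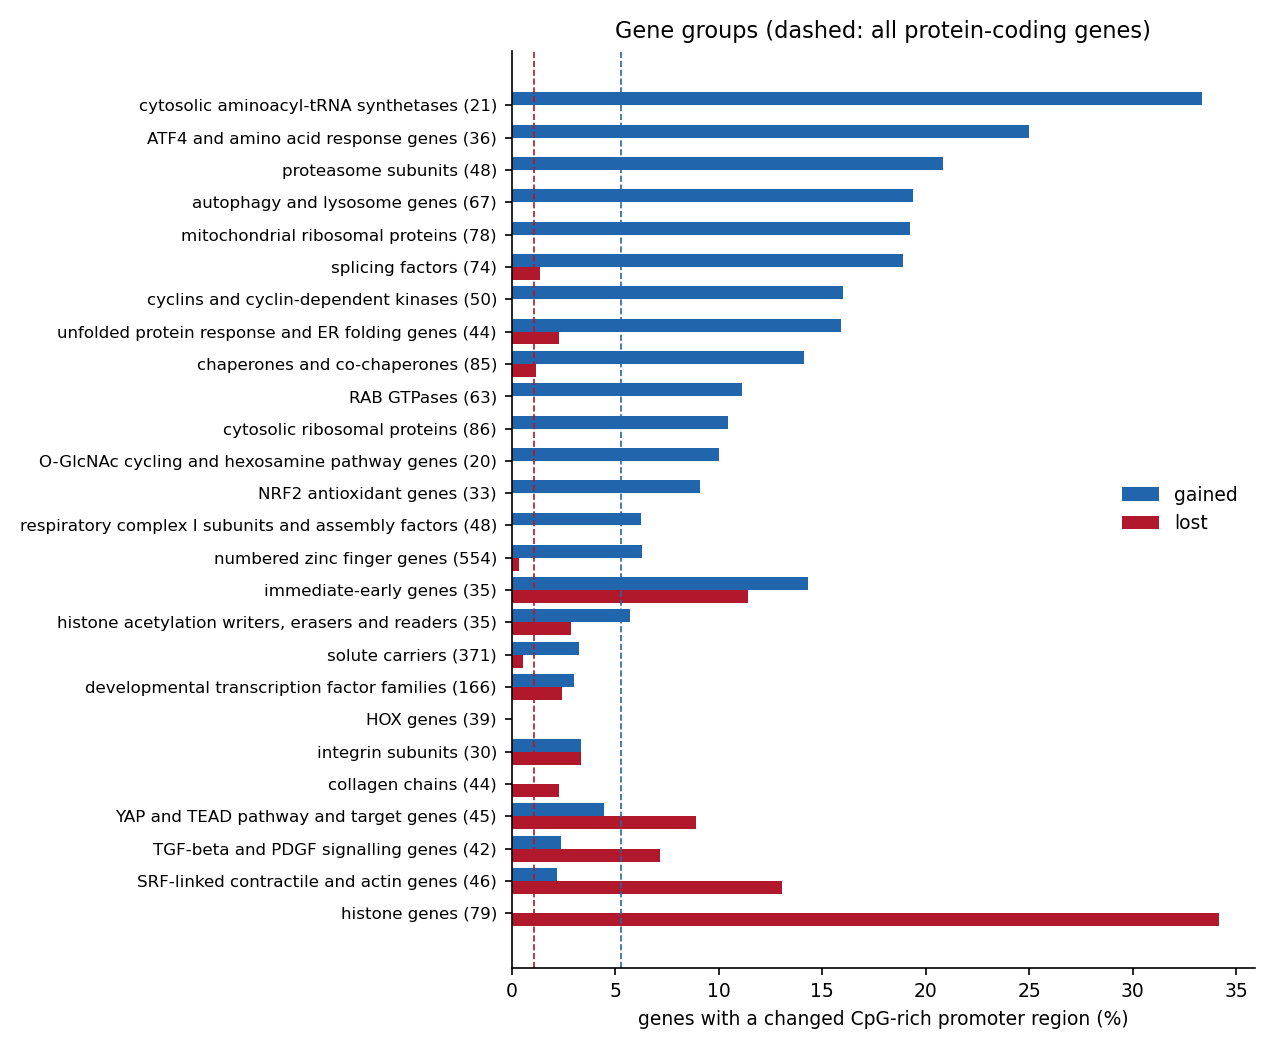
Share of genes (x axis, percent) with a gained (blue) or lost (red) CpG-rich promoter region in groups of genes (y axis, with the number of genes in the annotation), ordered by the difference. Dashed lines are the shares over all protein-coding genes (5.28% gained, 1.07% lost). Aminoacyl-tRNA synthetase genes (33.3% gained) and histone genes (34.2% lost) are at the ends.

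Lost and gained members also differed in where they lay. The TSS of the nearest protein-coding gene was inside 65.6% of lost (120 of 183, 58.4% to 72.1%) and 85.2% of gained regions (727 of 853, 82.7% to 87.5%), an odds ratio of 0.330 (0.231 to 0.473, two-sided Fisher's exact test, p = 5.56e-09). Lost regions that missed this 5′ end of the gene mostly lay downstream of it (56 regions, 30.6%), and rarely upstream (7 regions, 3.83%). Among gained regions these were 108 (12.7%) and 18 (2.11%). The regions that missed it were close by, with a median distance of 417 bp for lost and 219.5 bp for gained regions. KLF9, for example, a transcription factor gene, had a lost region from 208 to 3120 bp after its TSS. Without histone and mitochondrial regions the odds ratio was 0.316 (exact p = 5.72e-09). With the TSSs of all transcripts of protein-coding genes, the nearest was inside 183 of 211 lost and 919 of 957 gained regions. The odds ratio was then 0.270 (exact p = 3.01e-06), so many lost regions that missed the 5′ end of the gene covered another annotated TSS.

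The lower frequency of an included TSS was not accompanied by narrower lost regions. The median was 1668 bp wide (1164 and 2258 at the quartiles), against 1464 bp (1027 and 1946) in gained regions, and 38.3% of lost (31.5% to 45.5%) but 23.6% of gained regions (20.8% to 26.5%) were at least 2000 bp wide (odds ratio 2.01, 1.43 to 2.82, Fisher's exact test, p = 8.86e-05). The typical bin of the authors' procedure is 2000 bp, and wide peaks are divided, so widths describe bins as well as acetylated domains. Members covered 310 kb in lost and 1289 kb in gained regions. The median CpG ratio was 0.760 in lost and 0.778 in gained regions, and the median GC content 65.8% and 60.6%.

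**Figure D4:**
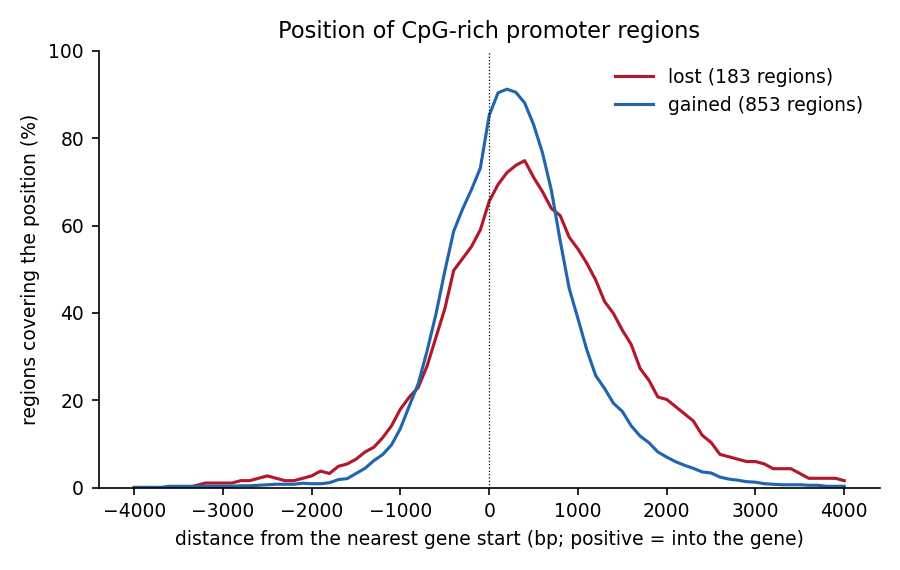
Share of lost (red, 183) and gained (blue, 853) CpG-rich promoter regions that cover a position (y axis, percent). The x axis is the distance in bp from the TSS of the nearest protein-coding gene, with positive values downstream of it. The gained curve is steeper around the TSS, where it includes 85.2% of regions, and the lost curve extends farther downstream.

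Pairs of TSSs on opposite strands were less frequent near lost members. A pair of TSSs on opposite strands, of genes of any kind, lay within 2500 bp of 42.1% of lost (77 of 183) and 51.5% of gained regions (439 of 853), an odds ratio of 0.685 (0.496 to 0.946, Fisher's exact test, p = 0.0226). The order of the TSSs was not checked, so such a pair need not be divergent. Counting protein-coding genes only, 19 lost and 170 gained regions had such a pair (odds ratio 0.466, exact p = 0.0021). The difference held without histone and mitochondrial regions (odds ratio 0.575, exact p = 0.00192), but it was not past the threshold with a CpG ratio of at least 0.75 (odds ratio 0.775, exact p = 0.277). Single regions served 2 or more protein-coding genes 31 times among lost and 196 times among gained members.

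The genes themselves spanned a median of 22.9 kb in lost and 33.6 kb in gained members. More than 50 kb was spanned by 29.8% of the genes of lost (64 of 215) and 35.8% of those of gained members (379 of 1058), a difference that did not pass the threshold (odds ratio 0.759, 0.552 to 1.04, Fisher's exact test, p = 0.0991). With 20 kb as the limit it did (odds ratio 0.475, exact p = 1.27e-06). Histone and mitochondrial genes are short, and without the regions at these genes the odds ratio at 50 kb was 1.05 (exact p = 0.798).

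The motifs were searched on both strands from 300 bp before to 100 bp after the TSS of each member gene, in windows of 1 length since lost and gained regions differed in width. The 16 patterns were GCGCATGCG for NRF1, CCGGAAGT for ETS factors, CCAAT for NFY, GGGGCGGGG for SP and KLF factors, AAGATGGCG for YY1, TCTCGCGAG for ZBTB33, CACGTG for the E-box, TGACGTCA for the CRE, GTTGCCATG for RFX factors, TTTGGCGC for E2F, CATTCC for TEAD, TGANTCA for AP-1, TGATGCAA for the ATF4-C/EBP composite, GAANNTTC for HSF, TGACNNNGC for the antioxidant response element (ARE) and TATAAA for the TATA box. AP-1 and ARE matches can share bases, as can ARE and CRE matches. Shares are of genes with at least 1 match, and genes that share a region also share part of their windows, so p-values over genes can be too small. Shares of all CpG-rich promoters are over the 11741 genes whose own window was CpG-rich. That was so for 171 of the 215 lost and 931 of the 1058 gained genes, since members were chosen by the ratio of the region. A match is a description of letters and not evidence of binding.

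Among the motifs past the threshold, ETS had the odds ratio farthest from 1. They were present at 2 of 215 lost genes (0.93%, 0.256% to 3.33%) and at 152 of 1058 gained genes (14.4%, 12.4% to 16.6%), while 8.77% of all CpG-rich and 5.49% of all protein-coding promoters had one (odds ratio 0.056, p = 9.34e-10 by Fisher's exact test after Benjamini-Hochberg adjustment over the 16 motifs). None of the 183 lost regions had an ETS match anywhere in its sequence, against 174 of the 853 gained regions (adjusted exact p = 1.47e-15). Matches at gained genes had a median position 21 bases before the TSS. Those of ZNF787 and ZNF274 shown above begin at bases 1 and 41 of the gene. YY1, whose motif often lies just after the start of housekeeping genes, was at 0.93% of lost and 6.81% of gained genes (odds ratio 0.129, adjusted exact p = 9.25e-04), with a median position 25.5 bases after the TSS in gained genes. The HCFC1 match shown above begins at base 5 of the gene.

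Other motifs of housekeeping and stress-responsive promoters were rarer at lost genes. The E-box was at 6.98% of lost and 15.2% of gained genes (odds ratio 0.418, adjusted exact p = 0.00337), with 12% in all CpG-rich promoters. The ARE, the site of NRF2, was at 10.2% and 19.8% (odds ratio 0.460, adjusted exact p = 0.00259), with 18.6% in all CpG-rich promoters. NRF1, a factor of nuclear genes for mitochondrial proteins, was at 1.86% and 5.48% (odds ratio 0.327, adjusted exact p = 0.0457), with 4.30% in all. LAMP1, a lysosomal membrane protein gene, had 6 E-box matches in its window, the most of any gained gene. Without histone and mitochondrial regions, ETS (adjusted p = 1.42e-07), YY1 (0.00845) and ARE (0.0337) differed past the threshold in the Fisher's exact test, whereas the E-box (odds ratio 0.529, adjusted p = 0.0811) and NRF1 (0.408, adjusted p = 0.206) did not. These 2 motifs had the same counts at the remaining lost genes, 15 and 4, since none of the histone and mitochondrial genes had a match.

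SP/KLF, NFY and TATA motifs were more frequent at lost than at gained genes. SP/KLF matches, GC boxes, were at 31.2% of lost and 22.9% of gained genes (odds ratio 1.53, adjusted p = 0.026 by Fisher's exact test), and at 32.8% of all CpG-rich promoters. The lost genes were near the share of all CpG-rich promoters, and the gained genes below it, although these sets were chosen by different sequences. No histone or mitochondrial gene had a match, and without the regions at these genes the share of lost genes was 38.7% (odds ratio 2.13, adjusted exact p = 1.45e-04). The difference was not past the threshold in windows from 150 bp before to 50 bp after the TSS (odds ratio 1.42, adjusted exact p = 0.109) or with a CpG ratio of at least 0.75 (odds ratio 1.45, adjusted exact p = 0.16). The GC content of lost regions was also higher, as given above, and the part of GC content in this difference was not tested.

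The NFY and TATA differences were not past the threshold without the regions at histone genes. Nor were they when regions within 1000 bp were joined and only the nearest gene of each was kept. The odds ratios were then 1.34 for NFY (adjusted exact p = 0.14) and 1.835 for TATA (adjusted exact p = 0.0793). NFY matches were at 49.3% of lost and 39.3% of gained genes (odds ratio 1.5, adjusted p = 0.0206 by Fisher's exact test), but at 34 of the 40 histone and mitochondrial genes among the lost ones, and without these regions at 40.5% (odds ratio 1.05, adjusted p = 0.942). TATA was at 16.3% of lost and 5.48% of gained genes (odds ratio 3.35, adjusted exact p = 3.81e-06), at 21 of the 40 histone and mitochondrial genes, and without these regions at 8.09% of lost genes (odds ratio 1.52, adjusted exact p = 0.389). Leaving out only the regions at histone genes gave odds ratios of 1.11 for NFY (adjusted exact p = 0.751) and 1.51 for TATA (adjusted exact p = 0.312). With only the mitochondrial regions left out they were 1.45 (adjusted exact p = 0.0356) and 3.49 (adjusted exact p = 2.78e-06). In the position of a working TATA box, with the first base of TATAAA on the strand of the gene 40 to 21 bases before the TSS, a match was present at 15 of the 27 lost histone genes, 5 of 175 other nuclear lost genes (2.86%) and 6 of 1058 gained genes (0.567%). H2AC11, shown above, has its match 31 bases before the TSS.

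The TEAD motif was not past the threshold at these promoters. It was at 20.9% of lost (45 of 215) and 15.7% of gained genes (166 of 1058), with an odds ratio of 1.42 (adjusted p = 0.112 by Fisher's exact test), beside 13.1% of all CpG-rich promoters. Nor were AP-1 (4.65% and 5.77%, adjusted exact p = 0.834), CRE (3.72% and 3.59%, adjusted exact p = 0.964), HSF (8.37% and 8.41%, adjusted exact p = 1) and ZBTB33 (0.465% and 2.74%, adjusted exact p = 0.0827). RFX, E2F and ATF4-C/EBP matches occurred at under 1.5% of either set, a frequency at which a difference was hardly detectable. Over whole regions, which reach farther from the TSS, the ATF4-C/EBP composite was in 2 of 183 lost (1.09%) and 45 of 853 gained regions (5.28%), an odds ratio of 0.198 (adjusted exact p = 0.0266), and the share for TATA (26.2% and 26.1%) and ARE (42.1% and 47.2%) no longer differed past the threshold.

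**Figure D5:**
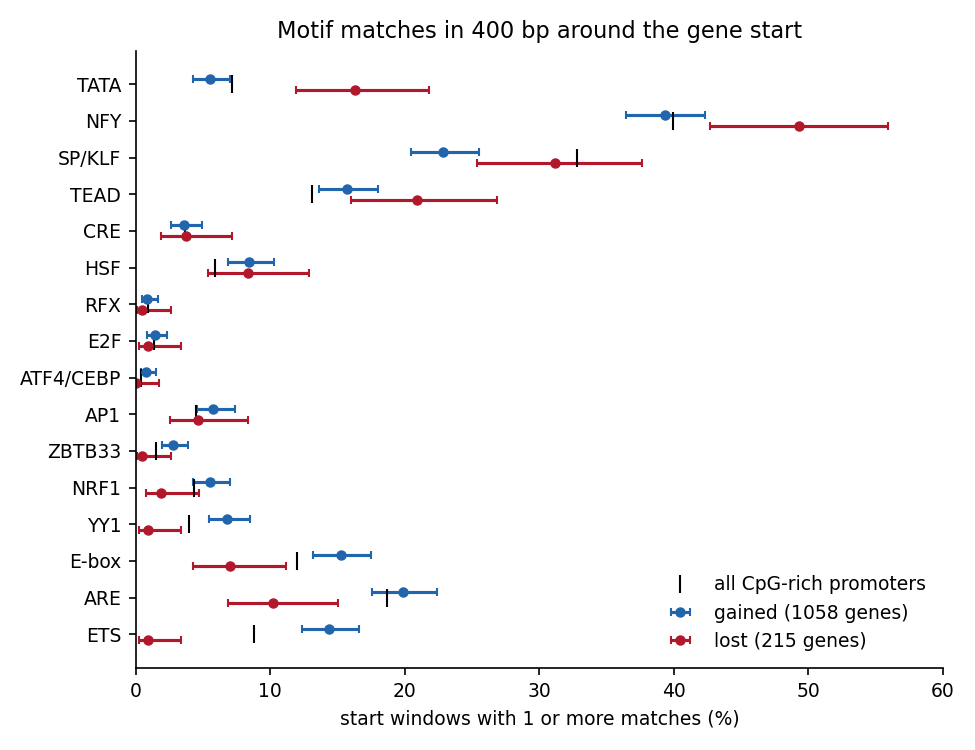
Share of start windows with at least 1 motif match (x axis, percent) for 16 motifs (y axis) at 1058 gained (blue) and 215 lost genes (red), with Wilson 95% intervals. Black ticks are the share over all protein-coding genes whose own start window is CpG-rich. Intervals are apart for ETS, YY1, ARE, E-box, NFY and TATA, with NFY and TATA higher at lost genes.

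Most members had no changed region outside protein-coding promoters nearby. A listed region outside protein-coding promoters lay within 50 kb of 62 of 183 lost (33.9%) and 181 of 853 gained members (21.2%). The same held for 46.0% of lost and 46.5% of gained CpG-poor promoters. Where there was one, the nearest had the direction of the promoter for 54 of 62 lost (87.1%) and 133 of 181 gained members (73.5%). At CpG-poor promoters these shares were 92.9% and 91.2%. They are given as a description, since neighbouring regions can belong to 1 domain.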

How the data were processed

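In the study's account, reads were aligned by the authors to hg38 with Chromap. Peaks were called per library against input with MACS2 (version 2.1.1.20160309 in the submitters' processing notes) after removal of duplicates and blacklisted regions, then binned and compared between 4 OGTi and 4 control H3K27ac libraries with MAnorm2. The deposited lists hold 3 columns of positions in bp. The adjusted p of 0.15 stands in their names, while the methods text names a stricter one. Other scalings between the arms could not be tried on positions alone.

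Starts were converted to count from 1. TSSs were the 5′ ends of genes in GENCODE release 44 (62700 genes, of which 20046 protein-coding) on hg38. The study used an earlier release. Members and gene lists were chosen with earlier results of these data known. A member was given to each protein-coding gene with a TSS within 2500 bp. Its position and distance refer to the nearest TSS. Genes were named as the 10 per direction with the most bases in members, up to 5 per list and direction by the same order, those followed by the study, those nearest to the threshold and, for sequences, those with the most matches. The lists were 32 in number, and 5 of them were the study's. Shares carry Wilson 95% intervals. Fisher's exact test, two-sided and at a threshold of 0.05, was used for each comparison (scipy 1.17.1, pysam 0.24.0), with Benjamini-Hochberg adjustment over the 16 motifs. Regions or genes, not cultures, were the unit, so p-values do not measure the spread between cultures. The scripts were tested on simulated data. Some genes and sequences that the naming rule selects are not reported here.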

Additional observations from a re-analysis of the deposited data

How the results depend on the processing

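The lower odds of loss at CpG-rich promoters, the lower frequency of an included TSS and the higher frequency of regions of at least 2000 bp among losses kept their direction and side of the threshold under every alternative run, with odds ratios of 0.204 to 0.392 against CpG-poor promoters, 0.157 to 0.177 against all other listed regions, 0.270 to 0.488 for the TSS and 2.03 to 2.38 for width. With a CpG ratio of at least 0.75, the odds ratio for TSSs on opposite strands was 0.775 (exact p = 0.277). At that ratio, 3 motifs (ETS, NFY and TATA) passed the threshold in place of 8. With the nearest gene of each joined block, 5 motifs passed. NRF1 (odds ratio 0.294, adjusted exact p = 0.0793), NFY (1.34, adjusted exact p = 0.14) and TATA (1.835, adjusted exact p = 0.0793) did not. Without histone and mitochondrial regions, an alternative chosen after seeing the data, 4 passed. Without the histone regions alone, also added later, 5 passed. For gene span, the odds ratio was 0.475 and past the threshold at 20 kb, and it was 1.05 without histone and mitochondrial regions, among which genes are short. NFY had an odds ratio of 0.792 (adjusted exact p = 0.321) when whole regions were searched. The causes of the other changes were not tested. Of 112 values under alternatives, 83 kept direction and side or stayed within 1.5 times the count. The counts of histone, SRF-linked and ATF4 genes under other windows and ratios were also added after seeing the data. A stricter adjusted p and the omission of single cultures were not run, since the lists hold positions alone. No paired analysis was possible because no value per replicate is held in either list.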
